A study of Homo sapiens with 6 samples.

Results

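The aryl hydrocarbon receptor (AHR) battery described here holds 9 genes of 35019 listed in the expression table of BEAS-2B cells, an immortalised human bronchial epithelial line. They were selected by gene symbol, 1 row per Ensembl identifier, and all 9 passed the filter on low values that 14188 genes passed. The genes are the receptor gene AHR, its partner ARNT, its repressor AHRR and 6 target genes, CYP1A1, CYP1B1, ALDH3A1, TIPARP, NEDD9 and TIAM1. Total RNA was sequenced in 6 libraries, 3 of cells given RSL3 and indirubin (RSL3+ID) and 3 of cells given RSL3 alone. RSL3, a covalent inhibitor of the lipid peroxidase GPX4 that triggers ferroptosis, was used at 2 µM for 24 h in both groups. Indirubin, a bis-indole dye, preceded it by 2 h in the RSL3+ID cells, and its dose is given only as a range, 7.5 to 30 µM. Neither untreated cells nor cells given indirubin alone are analysed here, so an effect of indirubin cannot be told apart from a changed response to RSL3. Whether each library is its own culture is not stated, and every p-value therefore refers to spread among libraries that could be purely technical.

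The receptor is a ligand-activated transcription factor of the bHLH-PAS family. Without a ligand it rests in the cytosol with the chaperone HSP90 and its co-chaperone p23. A planar aromatic ligand, and indirubin is known as one, sends it to the nucleus, where it pairs with ARNT and binds the xenobiotic response element, whose core is GCGTG. Its best-known targets are cytochrome P450 genes of family CYP1, whose products oxidise many of its ligands, and the feedback genes AHRR and TIPARP, whose products restrain the receptor. In airway epithelium CYP1A1 and CYP1B1 are known for their response to tobacco smoke.

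The start regions of 4 members are shown because CYP1A1 and ARNT are the 2 members whose groups did not overlap, as was the case for 25.4% of all tested genes, AHRR holds the longer form of the element, and TIPARP is the most abundant member per length. Each is a RefSeq window of 300 bases on GRCh38.p14, 250 before and 50 after the annotated start, on the strand of the gene. Capitals mark GCGTG read on either strand, so that the reverse strand appears as CACGC. The windows are CYP1A1 at chr15:74725479-74725778 on the minus strand, AHRR at chr5:321464-321763 on the plus strand, TIPARP at chr3:156674340-156674639 on the plus strand and ARNT at chr1:150876550-150876849 on the minus strand.
CYP1A1: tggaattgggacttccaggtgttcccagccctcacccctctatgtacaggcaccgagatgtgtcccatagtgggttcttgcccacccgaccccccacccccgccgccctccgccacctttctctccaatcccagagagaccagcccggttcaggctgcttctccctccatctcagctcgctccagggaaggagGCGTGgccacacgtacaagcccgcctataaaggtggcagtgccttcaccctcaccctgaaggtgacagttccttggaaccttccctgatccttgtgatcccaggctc
AHRR: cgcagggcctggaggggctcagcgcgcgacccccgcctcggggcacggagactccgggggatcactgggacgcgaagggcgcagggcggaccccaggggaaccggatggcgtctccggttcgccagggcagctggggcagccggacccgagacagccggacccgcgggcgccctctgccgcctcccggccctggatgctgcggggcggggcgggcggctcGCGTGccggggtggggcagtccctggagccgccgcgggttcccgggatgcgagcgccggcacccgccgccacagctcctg
TIPARP: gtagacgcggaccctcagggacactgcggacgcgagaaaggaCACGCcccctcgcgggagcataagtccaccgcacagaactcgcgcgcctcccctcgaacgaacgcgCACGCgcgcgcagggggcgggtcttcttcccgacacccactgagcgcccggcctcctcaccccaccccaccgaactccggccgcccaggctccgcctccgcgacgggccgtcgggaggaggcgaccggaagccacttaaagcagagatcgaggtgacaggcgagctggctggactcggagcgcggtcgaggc
ARNT: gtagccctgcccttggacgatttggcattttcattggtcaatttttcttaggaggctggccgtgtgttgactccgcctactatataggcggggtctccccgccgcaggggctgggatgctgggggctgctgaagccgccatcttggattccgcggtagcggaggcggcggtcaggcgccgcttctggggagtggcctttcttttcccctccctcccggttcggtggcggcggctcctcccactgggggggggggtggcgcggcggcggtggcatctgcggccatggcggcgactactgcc

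The CYP1A1 window held 1 GCGTG, which began 57 bases before the start, and the TIPARP window shown held 2, at 208 and 142 bases before the start and both on the reverse strand. It is 1 of 3 TIPARP windows, and the other two held none. In the AHRR window shown GCGTG began 30 bases before the start and was part of TNGCGTG, the longer form of the element, which contains the core. The other AHRR window held 2 GCGTG, at 247 and 42 bases before its own start, and no TNGCGTG. The ARNT window held no GCGTG. In all, 7 members had a window in the RefSeq table, and 5 of them, AHR, AHRR, CYP1A1, TIAM1 and TIPARP, had at least 1 window with GCGTG on either strand. Counted by window, 6 of the 12 windows of these members held it. GCGTG occurred in 36.5% of 35116 windows of the same length in that table and TNGCGTG in 5.51%, so the short core is common in such windows. These matches describe the printed letters only, sequence outside the windows was not searched, and binding was not measured.

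In RSL3+ID cells the CYP1A1 level was higher and the ARNT level lower than in RSL3 cells, with no overlap between the libraries of the 2 groups, but neither difference passed the test over all genes. CYP1A1 averaged 36.6 ± 7.54 normalised counts in RSL3+ID cells and 17.3 ± 4.95 in RSL3 cells, and ARNT averaged 242.8 ± 21.0 in RSL3+ID cells and 363.8 ± 13.6 in RSL3 cells (SD, n = 3 each). The receptor gene AHR differed by a log2 fold change of 0.08 with all 6 libraries, and by 0.50 with RSL3+ID library 2 left out. None of the 9 members passed an adjusted p of 0.05 in limma's test with Benjamini-Hochberg adjustment, against 1.91% of all tested genes. At an unadjusted p under 0.05 there were 3 members, ARNT, CYP1B1 and CYP1A1, against 19.3% of all tested genes. The 2 members without overlap between groups stand against 25.4% of all tested genes. Of the 9 log2 fold changes, 6 were positive and 3 negative, with a median of 0.08 against −0.02 for all tested genes.

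A normalised count is the number of reads of a gene divided by the library's size factor. Library totals lay between 15206183 and 18506637 reads, at which a gene without reads could still be present at up to 3 reads, or 0.162 to 0.197 CPM (reads scaled to a common library total). Over all genes 153 were higher and 118 lower in RSL3+ID, and this split was 90 and 217 with scaling to the total count and 151 and 71 with upper-quartile scaling. RSL3+ID library 2 stands apart from the others: without it 1325 genes were called, which is 9.34% of those tested, while leaving out any other library left between 0 and 4. Calls of members and list genes that change without it are given both ways. Of the 9 bronchial epithelial markers examined, KRT7, KRT8, KRT17 and KRT18 were abundant, while KRT5, TP63 and CDH1 were at or near 0 in most libraries. Of these markers KRT18, a simple-epithelium keratin, passed the test and fell (log2 fold change −0.66, limma, adjusted p = 0.0361). Their summed level ran from 42730 to 53574 normalised counts in RSL3+ID and from 54438 to 58311 in RSL3, and the part of this in the results below was not tested. Fewer cells and less RNA per cell cannot be told apart in such bulk libraries. Fibroblast markers summed to between 784 and 1433 in RSL3+ID and between 1230 and 1473 in RSL3, with COL1A1 the main part. The pan-leukocyte marker PTPRC did not exceed 2.07 in any library. CD14 made up nearly all of the leukocyte list, which summed to between 526 and 840 in RSL3+ID and between 414 and 561 in RSL3.

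**Figure D1:**
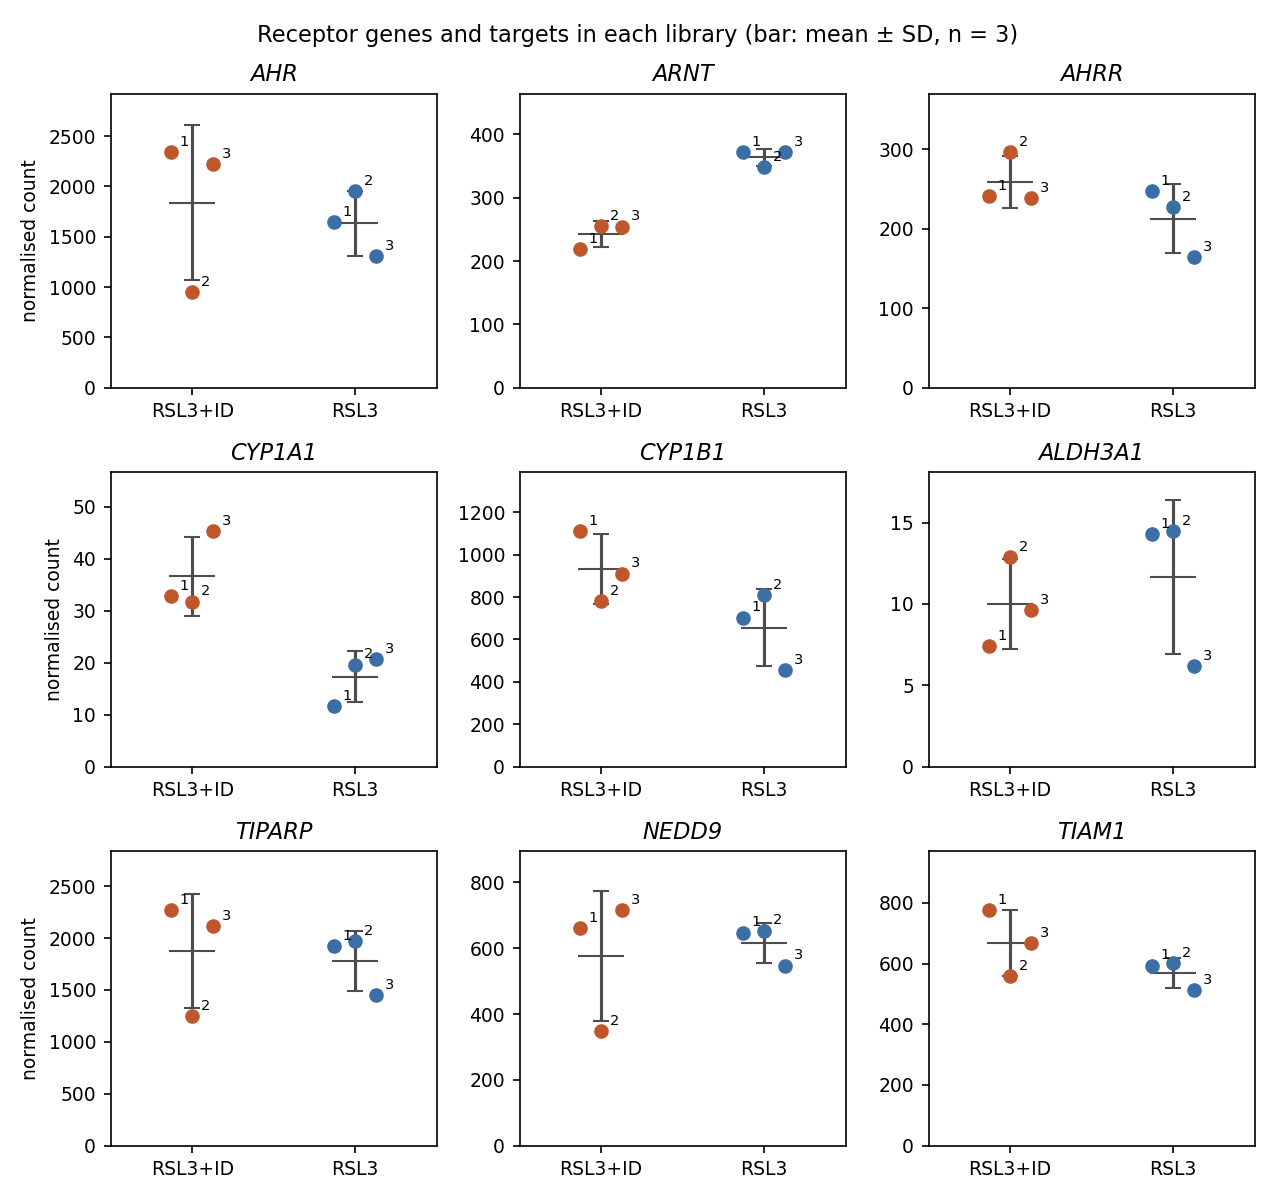
Normalised counts of the 9 genes in each library, with RSL3+ID on the left and RSL3 on the right of each panel; numbers beside points are library numbers and bars are mean ± SD (n = 3). ARNT lies lower and CYP1A1 higher in all 3 RSL3+ID libraries than in any RSL3 library, and AHR, TIPARP and NEDD9 are lowest in RSL3+ID library 2.

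AHR, the ligand-binding subunit (ENSG00000106546, chromosome 7, 16916359 to 17346152 on GRCh38), had 2339, 949.6 and 2220.1 normalised counts in RSL3+ID libraries 1, 2 and 3, against 1647, 1952 and 1305 in RSL3 libraries 1, 2 and 3. RSL3+ID libraries 1 and 3 lay above every RSL3 library and RSL3+ID library 2 lay below all of them, so the groups overlapped. Over all 6 libraries the log2 fold change was 0.08 with an SE of 0.29 and a 95% confidence interval from −0.55 to 0.71 (limma, adjusted p = 0.911). Without RSL3+ID library 2 it was 0.50 with an SE of 0.15 and an interval from 0.18 to 0.82, and it passed the test (limma, adjusted p = 0.0460), as did 5.23% of all tested genes in the higher direction in that fit. The sign turned when another single library was dropped: −0.15 with RSL3+ID library 1 absent, −0.11 with RSL3+ID library 3 absent and −0.075 with RSL3 library 3 absent. The direction of AHR therefore depended on single libraries and its call on RSL3+ID library 2. On the fold scale the interval over 6 libraries spans 0.682 to 1.63.

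ARNT, the nuclear partner that AHR shares with the hypoxia-inducible factors (ENSG00000143437, chromosome 1, 150809705 to 150876768), had 218.6, 255.7 and 254.2 normalised counts in RSL3+ID libraries 1, 2 and 3, against 371.7, 348.1 and 371.7 in RSL3 libraries 1, 2 and 3. All 3 RSL3+ID libraries were below all 3 RSL3 libraries, a pattern of lower values that 12.6% of all tested genes shared. The log2 fold change was −0.58 with an SE of 0.19 and a 95% confidence interval from −0.99 to −0.18, a level lower by a factor of 1.499. It had the smallest p of the members (unadjusted p = 0.00840 in limma) and did not pass after adjustment (limma, adjusted p = 0.119). The exact 2-sided permutation test over the 6 libraries gave p = 0.1, which is the smallest that 3 libraries against 3 allow. Its estimate was negative in all 17 alternative settings, from −0.68 to −0.43, with adjusted p-values between 0.0566 and 0.374 (limma). The −0.43 was on the variance-stabilised values as deposited, a scale that compresses low counts, and the next weakest estimate was −0.51.

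AHRR, the receptor's repressor, which competes for ARNT and for the response element (ENSG00000063438, chromosome 5, 304176 to 438291), had 240.8, 296.4 and 238.8 normalised counts in RSL3+ID libraries 1, 2 and 3, against 247.5, 227.2 and 164.2 in RSL3 libraries 1, 2 and 3. The groups overlapped, and RSL3 library 3 was the lowest. Its log2 fold change was 0.29 with an SE of 0.23 and an interval from −0.20 to 0.78 (limma, adjusted p = 0.512). The annotated AHRR gene overlaps PDCD6, a calcium-binding protein gene on the same strand that averaged 4508 normalised counts in RSL3+ID and 3921 in RSL3, so reads of the shared stretch may have been assigned to either gene. The neighbour PDCD6 had a log2 fold change of 0.21 (limma, adjusted p = 0.440).

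CYP1A1, the P450 enzyme that is the classic readout of receptor activity (ENSG00000140465, chromosome 15, 74719542 to 74725610), had 32.7, 31.7 and 45.2 normalised counts in RSL3+ID libraries 1, 2 and 3, against 11.6, 19.6 and 20.6 in RSL3 libraries 1, 2 and 3. These values rest on 31, 32 and 47 reads in RSL3+ID and 13, 19 and 20 reads in RSL3. Every RSL3+ID library was above every RSL3 library, as was the case for 12.8% of all tested genes. The log2 fold change was 1.06 with an SE of 0.45, a 2.08-fold higher level, and its 95% interval ran from 0.08 to 2.04, or from 1.06- to 4.11-fold. After adjustment the difference did not pass (limma, adjusted p = 0.222), and the exact 2-sided permutation test gave p = 0.1, again the smallest the design allows. Without RSL3+ID library 2 the log2 fold change was 1.15 (limma, adjusted p = 0.196), close to that of all 6 libraries. On the variance-stabilised values as deposited, a scale that compresses low counts, it was 0.32.

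CYP1B1, a related P450 enzyme that is expressed outside the liver (ENSG00000138061, chromosome 2, 38066973 to 38109902), had 1110, 782.1 and 910.8 normalised counts in RSL3+ID libraries 1, 2 and 3, against 703.2, 809.8 and 455.3 in RSL3 libraries 1, 2 and 3. RSL3 library 2 lay above RSL3+ID library 2, so the groups overlapped. The log2 fold change was 0.54 with an SE of 0.22 and an interval from 0.06 to 1.01 (limma, adjusted p = 0.208). It was 0.29 without RSL3 library 3, the lowest library, and 0.66 without RSL3+ID library 2 (limma, adjusted p = 0.0575). On the opposite strand it is overlapped by CYP1B1-AS1, which averaged 14.2 normalised counts in RSL3+ID and 14.7 in RSL3, and by RMDN2, which averaged 58.7 in RSL3+ID and 89.4 in RSL3. Reads of these could be counted for CYP1B1 if strand was not used, and CYP1B1 itself averaged 934.2 in RSL3+ID and 656.1 in RSL3.

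ALDH3A1, an aldehyde dehydrogenase of the classic xenobiotic battery (ENSG00000108602, chromosome 17, 19737984 to 19748943), was near the filter. It had 7.39, 12.9 and 9.63 normalised counts in RSL3+ID libraries 1, 2 and 3, against 14.3, 14.5 and 6.19 in RSL3 libraries 1, 2 and 3. The groups overlapped, and RSL3 library 3 was the lowest of all. At 6 to 16 reads per library, the log2 fold change of −0.15 had an SE of 0.65 and an interval from −1.56 to 1.26 (limma, adjusted p = 0.921), so only a larger difference was detectable at this depth. The sister enzyme genes ALDH3A2 and ALDH3B1 averaged 1212 and 293.1 normalised counts in RSL3+ID and 947.0 and 372.9 in RSL3, and neither passed.

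TIPARP, a mono-ADP-ribosyltransferase that is induced by AHR and promotes its loss (ENSG00000163659, chromosome 3, 156673235 to 156706770), had 2267, 1245 and 2114 normalised counts in RSL3+ID libraries 1, 2 and 3, against 1921, 1972 and 1451 in RSL3 libraries 1, 2 and 3. RSL3+ID library 2 was the lowest of the 6 and the other RSL3+ID libraries were the highest. Its log2 fold change was 0.04 with an SE of 0.22 and an interval from −0.43 to 0.51 (limma, adjusted p = 0.939), and 0.31 without RSL3+ID library 2 (limma, adjusted p = 0.197).

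NEDD9, a scaffold protein of focal adhesions (ENSG00000111859, chromosome 6, 11183298 to 11382348), had 662.1, 348.9 and 715.3 normalised counts in RSL3+ID libraries 1, 2 and 3, against 647.8, 653.8 and 547.2 in RSL3 libraries 1, 2 and 3. The 5 libraries other than RSL3+ID library 2 lay within a narrow range, and that library was the lowest. The log2 fold change was −0.16 with an SE of 0.25 (limma, adjusted p = 0.763) and turned to 0.16 without RSL3+ID library 2. TIAM1, an activator of the GTPase RAC (ENSG00000156299, chromosome 21, 31118416 to 31559977), had 775.1, 559.0 and 668.2 normalised counts in RSL3+ID libraries 1, 2 and 3, against 593.3, 600.1 and 512.1 in RSL3 libraries 1, 2 and 3. RSL3+ID libraries 1 and 3 were above all RSL3 libraries and library 2 was not. The log2 fold change was 0.22 with an SE of 0.18 and an interval from −0.16 to 0.60 (limma, adjusted p = 0.523).

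**Figure D2:**
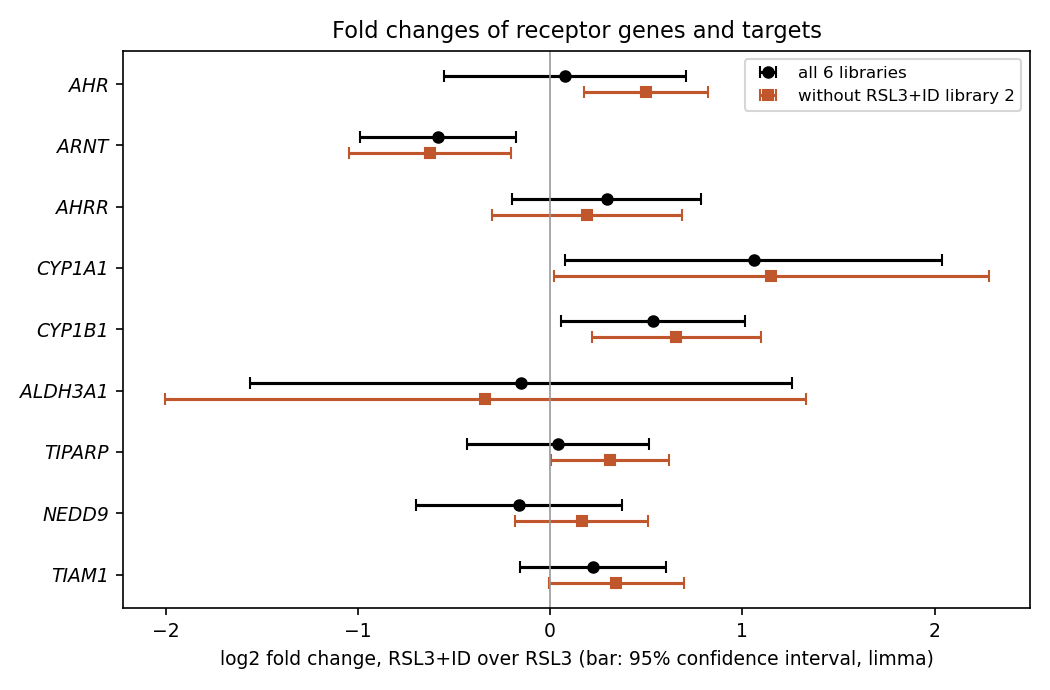
Log2 fold changes of the 9 genes, RSL3+ID over RSL3, with 95% confidence intervals from limma; circles use all 6 libraries and squares leave out RSL3+ID library 2. The interval of AHR lies from −0.55 to 0.71 with all libraries and from 0.18 to 0.82 without that library, while those of ARNT lie below 0 in both fits.

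On the log2 scale, RSL3+ID library 2 deviated from the mean over all libraries by −0.80 for AHR, −0.73 for NEDD9 and −0.52 for TIPARP, against 0.35 for AHRR, 0.35 for CYP1A1 and 0.29 for ALDH3A1. The other RSL3+ID libraries, 1 and 3, deviated by 0.50 and 0.42 for AHR. Within the RSL3+ID group, library 2 was the lowest for 6 of the 9 members, AHR and CYP1A1 among them. RSL3 library 3 was the lowest of its group for 7 of the 9 members, ARNT and CYP1A1 being the exceptions. The ratio of the highest to the lowest library was 3.90 for CYP1A1, 2.46 for AHR, 2.44 for CYP1B1 and 1.51 for TIAM1.

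**Figure D3:**
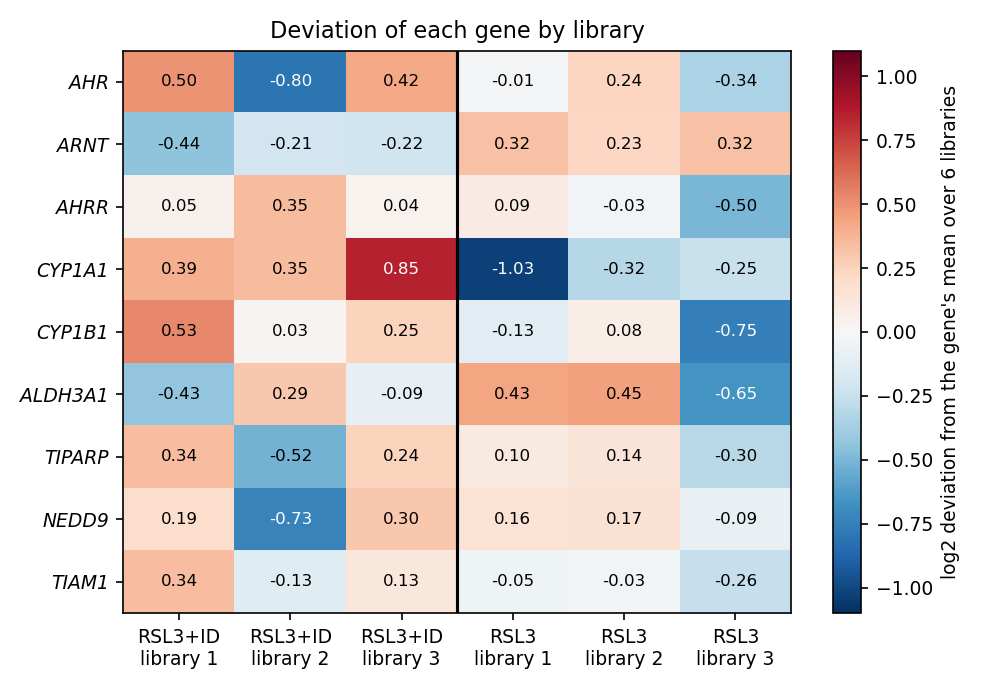
Deviation of each gene from its mean over the 6 libraries, in log2(normalised count + 1), by library; red is above and blue below the mean, and the vertical line separates RSL3+ID from RSL3. ARNT is negative in all 3 RSL3+ID libraries and CYP1A1 positive, while AHR reads 0.50, −0.80 and 0.42 in RSL3+ID.

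Levels of different genes were compared as RPKM, reads scaled to exon length and to the library's total on listed genes, with exon lengths from GENCODE 29. TIPARP was the highest, at 21.8 ± 5.68 RPKM in RSL3+ID and 22.3 ± 3.56 RPKM in RSL3, followed by AHR at 13.3 ± 5.18 RPKM in RSL3+ID and 12.8 ± 2.58 RPKM in RSL3 (SD, n = 3 each). CYP1B1 was next, at 9.18 ± 1.48 RPKM in RSL3+ID and 6.88 ± 1.92 RPKM in RSL3. In RSL3 these 3 genes kept apart, with no library of one reaching into the range of the next, whereas in RSL3+ID the ranges of TIPARP and AHR, and of AHR and CYP1B1, overlapped. TIAM1, NEDD9 and ARNT followed at 4.28, 3.25 and 2.21 RPKM in RSL3+ID and 3.89, 3.75 and 3.52 RPKM in RSL3, and neighbours in this order overlapped in both groups. ARNT and AHRR overlapped in RSL3+ID but not in RSL3. CYP1A1 stood at 0.627 ± 0.0977 RPKM in RSL3+ID and 0.318 ± 0.0936 RPKM in RSL3, and ALDH3A1 had the lowest mean, at 0.152 ± 0.0492 RPKM in RSL3+ID and 0.188 ± 0.0757 RPKM in RSL3. The ranges of CYP1A1 and ALDH3A1 overlapped in RSL3 and were apart in RSL3+ID.

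**Figure D4:**
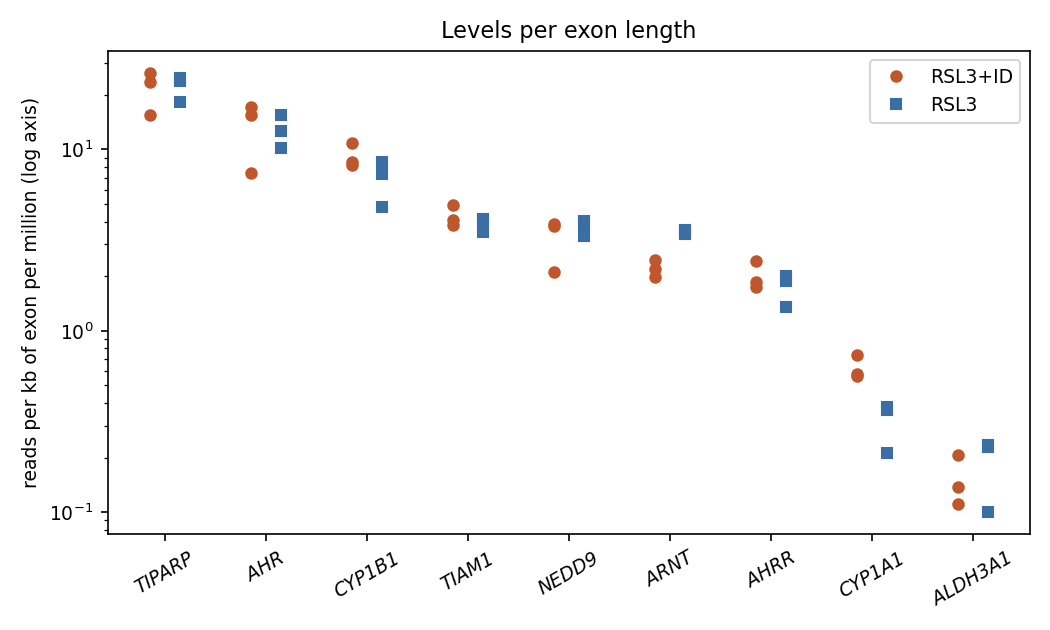
Levels per exon length (RPKM, log axis) of the 9 genes in each library, ordered by their mean over all libraries; circles are RSL3+ID and squares RSL3. Levels run from about 22 RPKM for TIPARP to under 1 RPKM for CYP1A1 and ALDH3A1, and ARNT and CYP1A1 are the genes whose groups do not overlap.

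Per length, AHR transcripts outnumbered ARNT transcripts 8.63-, 2.99- and 7.04-fold in RSL3+ID libraries 1, 2 and 3 and 3.57-, 4.52- and 2.83-fold in RSL3 libraries 1, 2 and 3. This ratio and the next 2 were chosen after the values were seen. The log2 ratio of ARNT over AHR was −2.50 ± 0.81 in RSL3+ID and −1.84 ± 0.34 in RSL3 (SD, n = 3 each), and the groups overlapped (exact 2-sided permutation p = 0.3, 0.45 after adjustment over 3 ratios). RSL3+ID libraries 1 and 3 lay below every RSL3 library, and the difference was −0.66 with all libraries and −1.12 without RSL3+ID library 2. The log2 ratio of CYP1A1 over AHR was −4.33 ± 0.63 in RSL3+ID and −5.35 ± 0.58 in RSL3, a difference of 1.03 (exact permutation p = 0.2, adjusted 0.45, n = 3 each) that was 0.70 without RSL3+ID library 2. For AHRR over AHR the difference was 0.22 (exact permutation p = 1, n = 3 each), and it turned to −0.31 without RSL3+ID library 2. The groups overlapped in all 3 ratios, and with 3 libraries against 3 the exact test cannot go below p = 0.1.

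Of 10045 genes with a mean normalised count of at least 100, those whose log2 values over the 6 libraries were most like CYP1A1 by Pearson correlation were EAF2 (r = 1.00), S100A6 (1.00), SLC9B2 (0.99), CGRRF1 (0.99) and DIP2A (0.98). For AHR they included NR4A2, PRAG1, OSR2 and PTGS2, each with r = 0.99. With 6 libraries and so many genes such values arise readily, and they share the library differences shown above. EAF2, a transcription elongation factor, had 745.6, 704.7 and 942.5 normalised counts in RSL3+ID libraries 1, 2 and 3, against 281.5, 441.1 and 498.7 in RSL3 libraries 1, 2 and 3. Its groups did not overlap, and its log2 fold change was 1.00. EAF2 was picked for its likeness to CYP1A1, whose groups do not overlap, so this difference is a description and not a test. NR4A2, a nuclear receptor gene of the immediate early kind, had 2210.3, 800.9 and 2125 in RSL3+ID libraries 1, 2 and 3, against 1641, 1722 and 1194 in RSL3 libraries 1, 2 and 3, the same order of libraries as AHR within each group.

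The other genes of the pathway were described in 7 lists with 67 tested genes. In the main test 1 rose, AFMID, and 1 fell, MT2A, against 1.08% and 0.832% of all tested genes in those directions. AFMID, the formamidase of the kynurenine route, which yields endogenous ligands of the receptor, had 2601, 2230.2 and 2939 normalised counts in RSL3+ID libraries 1, 2 and 3, against 1379, 1649.6 and 1455 in RSL3 libraries 1, 2 and 3. The groups did not overlap, and the log2 fold change was 0.79 with an SE of 0.15 (limma, adjusted p = 0.0339). The other 3 tested enzymes of this route, KYAT1, KYAT3 and AADAT, had positive estimates and did not pass, nor did TPH1, the tryptophan hydroxylase of serotonin synthesis, which is in the same list of ligand enzymes. The median over these 5 genes was 0.30. IDO1, which opens the route from tryptophan, was listed at 0 in every library. IDO2, TDO2, KMO, KYNU and IL4I1 of the same list did not pass the filter. No library exceeded 1.03 normalised counts for IDO2 or 7.70 for TDO2. MT2A, a metallothionein gene that binds zinc and is counted with reported receptor targets, had 829.0, 871.3 and 893.4 normalised counts in RSL3+ID libraries 1, 2 and 3, against 1956, 1654 and 1632 in RSL3 libraries 1, 2 and 3 (log2 fold change −1.01, limma, adjusted p = 0.0172). Both genes kept their direction in all 17 alternatives, and each passed in 10 of them. With 1 library left out they passed only where that library was RSL3+ID library 2, and their adjusted p-values otherwise reached 0.262 for AFMID and 0.151 for MT2A (limma).

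None passed among 8 tested genes of the receptor complex, its chaperones, its nuclear export and its ubiquitin ligases, whose median was −0.14. HSP90AA1, the inducible HSP90 gene, had a log2 fold change of −0.57 (limma, adjusted p = 0.279). HSP90AA1 had 23826, 17269 and 18625 normalised counts in RSL3+ID libraries 1, 2 and 3, against 23947, 51277 and 20239 in RSL3 libraries 1, 2 and 3, so that RSL3 library 2 was far above the rest. CUL4B, a scaffold of a ubiquitin ligase that AHR can join, had the smallest p of this list at −0.50 (limma, adjusted p = 0.222). CUL4B too was highest in RSL3 library 2, at 946.2 normalised counts against 587.9 and 533.8 in RSL3 libraries 1 and 3. Of 7 tested partners and paralogues of ARNT, 6 had negative estimates, with a median of −0.40, and none passed. Their median exon length was 7652 bases against 4893 over all tested genes. After a fitted dependence on exon length and GC was taken out of each library, their median was −0.27. HIF1A, the oxygen-sensitive partner of ARNT, had a log2 fold change of −0.71 (limma, adjusted p = 0.182), and SIM2, another bHLH-PAS factor, −0.76 (limma, adjusted p = 0.0999). HIF1A had 1136 normalised counts in RSL3 library 2, far above the 638.9 and 580.3 in RSL3 libraries 1 and 3.

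All 10 tested coactivators and corepressors had negative estimates, with a median of −0.58 against −0.02 over all tested genes, and none passed the main test. NCOR1, a corepressor of nuclear receptors, had the smallest p, at −0.77 (limma, adjusted p = 0.0669), followed by SMARCA4, the BRG1 remodelling ATPase, at −0.61 (limma, adjusted p = 0.0713), and NCOA3, a steroid receptor coactivator, at −0.72 (limma, adjusted p = 0.0761). Without RSL3+ID library 2 these 3 fell, as did 4.11% of all tested genes in that fit, and the list's median was −0.49. The median exon length of the list was 11263 bases against 4893 over all tested genes, and after a fitted dependence on length and GC was taken out of each library the median was −0.38, with 9 negative estimates. The deviation of genes in a library correlated with exon length at −0.016, −0.217 and −0.190 (Spearman) in RSL3+ID libraries 1, 2 and 3 and at 0.168, 0.288 and −0.011 in RSL3 libraries 1, 2 and 3. The part of transcript length in the list's values was not tested beyond this. ARNT, with 6516 exon bases, had a log2 fold change of −0.52 after the same removal (limma, adjusted p = 0.149).

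Among 16 tested further genes reported to respond to the receptor, 7 had positive and 9 negative estimates, with a median of −0.09 that was 0.25 without RSL3+ID library 2. NQO1, a quinone reductase under both AHR and NRF2, had a log2 fold change of 0.37 (limma, adjusted p = 0.169), and NFE2L2, which encodes NRF2, one of −0.74 (limma, adjusted p = 0.0735). EREG, an EGF receptor ligand, had 404.5, 108.0 and 458.3 normalised counts in RSL3+ID libraries 1, 2 and 3, against 132.2, 157.0 and 105.3 in RSL3 libraries 1, 2 and 3. RSL3+ID libraries 1 and 3 were far above all RSL3 libraries while library 2 lay among them, and EREG passed the test without library 2 (log2 fold change 1.72, limma, adjusted p = 0.000156). With all libraries its log2 fold change was 1.06 and it did not pass (limma, adjusted p = 0.211). In the fit without library 2, HES1, a Notch target, also rose (log2 fold change 0.72, limma, adjusted p = 0.00170), against 5.23% of all tested genes in that direction. NFE2L2 fell there with a log2 fold change of −0.63 (limma, adjusted p = 0.0316) and STC2, a secreted glycoprotein, with −0.40 (limma, adjusted p = 0.0305). With all libraries HES1 had a log2 fold change of 0.47 (limma, adjusted p = 0.225) and STC2 one of −0.44 (limma, adjusted p = 0.0846). Neither passed. CYP1A2, the hepatic relative of CYP1A1, did not pass the filter, and UGT1A6 was listed at 0 in every library. Of 11 other xenobiotic enzymes none passed, 7 had positive estimates and the median was 0.27. The detoxifying transferase GSTP1 had the smallest p of these, at 0.40 (limma, adjusted p = 0.138).

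Of 10 tested relatives of TIPARP, NEDD9 and TIAM1 and their partners, none passed with all libraries, 8 had negative estimates and the median was −0.23. TIAM2, the paralogue of TIAM1, averaged 35.5 ± 10.2 normalised counts in RSL3+ID and 94.0 ± 17.9 in RSL3 (SD, n = 3 each), a log2 fold change of −1.40 with the smallest p of this list (limma, adjusted p = 0.0584), against 0.22 for TIAM1 itself. Without RSL3+ID library 2 TIAM2 fell, with a log2 fold change of −1.32 (limma, adjusted p = 0.0262), and so did PTK2, the focal adhesion kinase, with −0.53 (limma, adjusted p = 0.0481). None of the 9 members is in the authors' deposited table of changed genes, which holds 6.3% of the genes tested here. That table does hold 12 genes of the 7 lists, 2 higher and 10 lower in RSL3+ID. In the authors' deposited table EREG was higher with an adjusted p of 0.0211, TIAM2 had a log2 fold change of −1.40, NCOR1 one of −0.77 and NFE2L2 one of −0.75. That table also lists CREBBP, NCOA3 and SMARCA4 of the coactivators and corepressors and SIM2 of the ARNT partners and paralogues as lower. None of these passed the main test here.

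**Figure D5:**
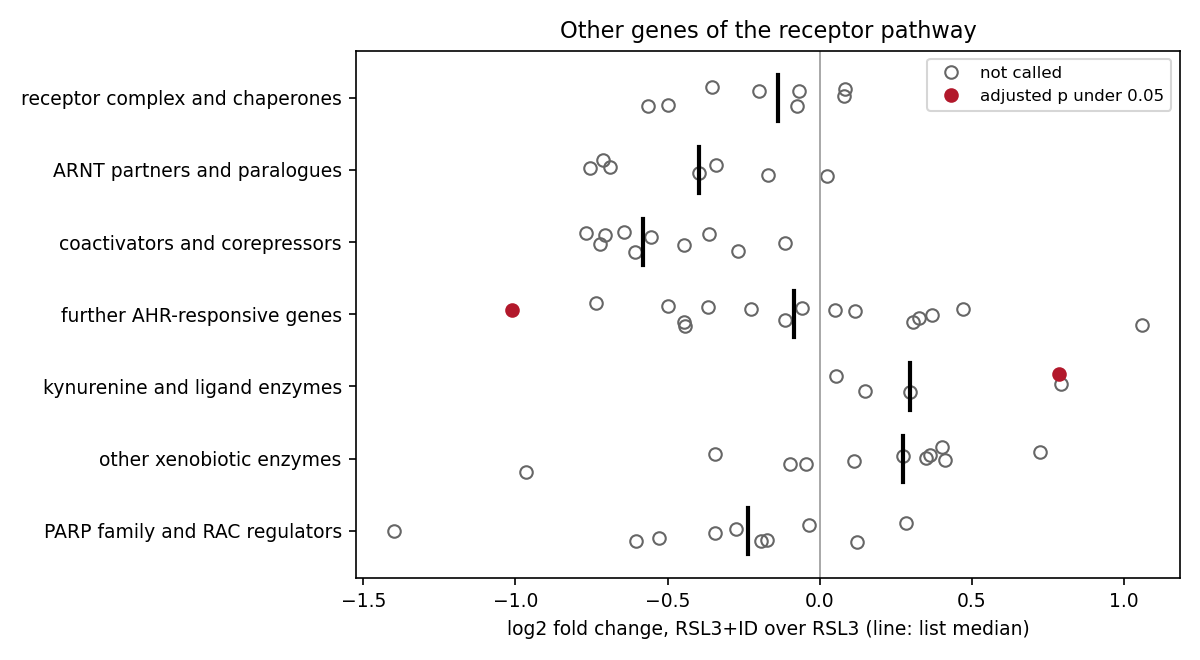
Log2 fold changes, RSL3+ID over RSL3, of 67 tested genes in 7 lists around the receptor; open circles did not pass, filled circles are MT2A at −1.01 and AFMID at 0.79, and black lines are list medians. All 10 coactivators and corepressors lie below 0.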

How the data were processed

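BEAS-2B RNA was profiled in 6 libraries, 3 per group, with groups taken from the treatment field because all titles begin alike. Per the submitters' processing notes, Trimmomatic 0.39, HISAT2 2.2.1, StringTie 2.1.5, DESeq2 1.30.0 and GRCh38 were used; the counting tool, strand setting and annotation were not given in sources used here. Column names of the expression table assign libraries to groups: 3 name RSL3 and 3 add a garbled word that reads "drug given" in Chinese once repaired, taken as RSL3+ID.

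The authors' deposited expression values are on a log2 scale in the form of DESeq2's variance-stabilising transform, with a shared lowest value of 6.04. Solving the transform backwards returned counts over size factors. For 894 genes the averages were equal to the base mean (a signal value in the authors' deposited table) within a relative 2.5e-14, and 100.0% of values lay within 0.001 of a whole read. That deposited table also holds log2 fold changes with p-values and a test statistic (a score), per the file headers. It lists genes with adjusted p below 0.05 only.

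Tests used limma 3.58.1 in R 4.3.3 on log2(normalised count + 1), trended and robust, 2-sided, adjusted by Benjamini-Hochberg over 14188 genes with a mean normalised count of at least 10; fold changes on this scale understate low genes. A gene counts as having risen, fallen or passed at an adjusted p under 0.05. The test was checked on simulated counts drawn independently for each gene. Shifts shared by many genes of a library were not simulated, so the check does not cover them. Exact permutation tests used scipy 1.17.1. Floors cover counting error only, as PCR copies cannot be told from separate molecules here. Members, lists and alternatives were chosen with earlier results of these data known. All 9 members are named, with list genes that passed and those with the smallest p; other named genes were chosen after their values were seen. Some genes of the lists are not reported here.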

Additional observations from a re-analysis of the deposited data

How the results depend on the processing

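The signs of ARNT, AHRR, CYP1A1, CYP1B1 and TIAM1 were the same in all alternatives run for them, and no alternative other than leaving out a library brought a member past the test. The filter at a mean of 50 left no value for CYP1A1 and ALDH3A1. With scaling to the total count, AHR turned to −0.014 and TIPARP to −0.052 on the log2 scale, while the median of all tested genes was −0.11. STC2, NFE2L2 and TIAM2 also passed as lower under that scaling. With 1 library left out, log2 fold changes ranged from −0.15 to 0.50 for AHR, −0.62 to −0.51 for ARNT, 0.12 to 0.41 for AHRR, 0.81 to 1.20 for CYP1A1, 0.29 to 0.71 for CYP1B1, −0.12 to 0.31 for TIPARP, −0.52 to 0.034 for ALDH3A1, −0.35 to 0.16 for NEDD9 and 0.11 to 0.34 for TIAM1. The log2 ratio of AHRR over AHR ranged from −0.31 to 0.49 in its difference between groups. The count of 271 called genes ranged from 0 to 1325, and that of 2 called list genes from 0 to 11, over the same fits; fewer libraries enter each of them. The count was 0 with an empirical Bayes step that was neither trended nor robust (2402 genes at an unadjusted p under 0.05), and 259 to 331 under other pseudocounts and without a filter; the cause was not tested. A replicate block on the numbers in the column names gave 0 calls (1993 at an unadjusted p under 0.05) and left every member uncalled. Deviations of same-numbered libraries from their group means correlated at r = −0.0025, −0.25 and −0.18. With so few libraries per group these deviations depend on one another. The values therefore cannot decide whether same-numbered libraries share a culture or day. CYP1A1 and ALDH3A1 rest on at most 47 and 16 reads per library, which limits what could be seen.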
